A study of Mus musculus with 15 samples.

Results

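The Fc receptor and ITAM genes Fcgr1, Fcgr2b, Fcgr3, Fcer1g, Tyrobp and Syk were followed in the mouse line RAW264.7, whose macrophage-like cells form multinucleated, osteoclast-like cells when given the cytokine RANKL. The members were taken as every probe set annotated to exactly 1 of these 6 symbols. This gave 9 probe sets of the 12422 tested, and 6 of the 8251 genes represented. Fcgr1, Fcer1g and Syk had 2 probe sets each.

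Each of 15 Affymetrix arrays held RNA of 1 sample. RANKL-treated cells gave 1 array at day 1 and 2 arrays at each of days 2, 4 and 5, and control cells without RANKL gave 1 array at day 1, 2 at each of days 2, 3 and 4, and 1 at day 5. RANKL at day 3 was not analysed here. All cells were the same line, grown in alphaMEM with serum and given serum-free alphaMEM, with or without RANKL, on day 0 and again on day 3. The labels describe the RANKL cells as mononuclear at days 1 and 2 and as multi-nuclear at days 4 and 5. They do not say whether replicate arrays came from separate cultures, so p-values measure only the spread between these arrays, which may be technical.

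Fc receptors are surface proteins that bind the constant part of antibodies. The activating receptors Fcgr1 and Fcgr3 carry no signalling motif of their own in the mouse and pair with the chain encoded by Fcer1g, whose cytoplasmic ITAM, a paired tyrosine motif, is phosphorylated by Src family kinases and then binds the kinase Syk. Fcgr2b is the inhibitory receptor of the family and carries an ITIM, which recruits the phosphatase SHIP. Tyrobp, also called DAP12, is a second ITAM chain, and Fcer1g and Tyrobp together give the costimulatory calcium signal that osteoclast formation needs besides RANK.

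The median signal ran from 103 to 149, the correlation between arrays of a replicated group was 0.975 to 0.984 over the probe sets, and the beta-actin 3' to 5' ratio ran from 1.01 to 1.39. Of 10 macrophage markers, 6 were at or above the array's median signal on all 15 arrays (Cd68, Csf1r, Lyz2, Adgre1, Cd14 and Msr1), and Mrc1 and Marco were below it on all of them. The summed signal of the 10 was 29760 to 58450 on RANKL arrays and 47110 to 63210 on control arrays, with the lowest sums, 36610 and 29760, on the RANKL day 5 arrays. The summed signal of 5 osteoclast markers was 1050 to 24710 on RANKL arrays and 323 to 1781 on control arrays. Markers of lymphocytes and of other myeloid cells lay mostly below the array's median on every array, namely 5 of 6 T cell, 3 of 4 NK cell, 7 of 8 mast cell and basophil, 6 of 8 neutrophil and 3 of 3 platelet markers. The B cell list had 2 of 6 there and the dendritic cell list 2 of 6. The day 1 pair went against the later days. The osteoclast marker sum was 1050 on the RANKL array and 1781 on the control array. Of the member probe sets that were not below the array's median on every array, 4 had a day 1 difference opposite in sign to that of a later day. The labels were kept, and exchanged labels would turn the sign of every day 1 difference. The called differences and list counts that average over days are therefore given with and without that pair.

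The promoters of Fcgr1 and Fcgr2b are shown because these genes gave the largest differences between RANKL and control cells. The windows run from 250 bases before to 50 bases after the annotated start, from RefSeq on build GRCm38.p6, and both genes lie on the minus strand (Fcgr1 at chr3:96293920-96294219, Fcgr2b at chr1:170976022-170976321). Capitals mark motif matches.
Fcgr1: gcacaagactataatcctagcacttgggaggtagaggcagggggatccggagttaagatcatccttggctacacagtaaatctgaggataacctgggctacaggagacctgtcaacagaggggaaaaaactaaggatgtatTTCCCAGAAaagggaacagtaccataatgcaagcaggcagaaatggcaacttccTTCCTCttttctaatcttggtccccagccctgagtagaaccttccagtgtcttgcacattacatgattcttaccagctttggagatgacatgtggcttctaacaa
Fcgr2b: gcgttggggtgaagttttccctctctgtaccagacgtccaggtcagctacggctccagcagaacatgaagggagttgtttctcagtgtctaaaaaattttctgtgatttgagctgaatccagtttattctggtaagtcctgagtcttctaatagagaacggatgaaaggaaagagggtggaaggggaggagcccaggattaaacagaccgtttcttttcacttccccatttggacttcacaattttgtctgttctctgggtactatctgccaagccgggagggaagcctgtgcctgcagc

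The motifs searched on both strands were GAS (TTCNNNGAA), the core of the ISRE (GAAA, any 2 bases and GAAA again) and the core of the PU.1 site (GAGGAA). The Fcgr1 window held a GAS match that began at position -109 from the start and a PU.1 core on the opposite strand at -55. The Fcgr2b and Fcer1g windows held none of the 3 motifs. Both annotated windows of Fcgr3 held a PU.1 core, and 1 of 2 Syk windows did. Among 32851 promoter windows of 300 bases, 8.3% held the GAS motif, 3.44% the ISRE core and 28.3% the PU.1 core, so these matches are descriptions only. RefSeq windows were matched for 5 of the 6 genes. Fcgr2b, Fcgr3 and Fcer1g lie on chromosome 1, Fcgr1 on chromosome 3, Tyrobp on chromosome 7 and Syk on chromosome 13.

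**Figure D1:**
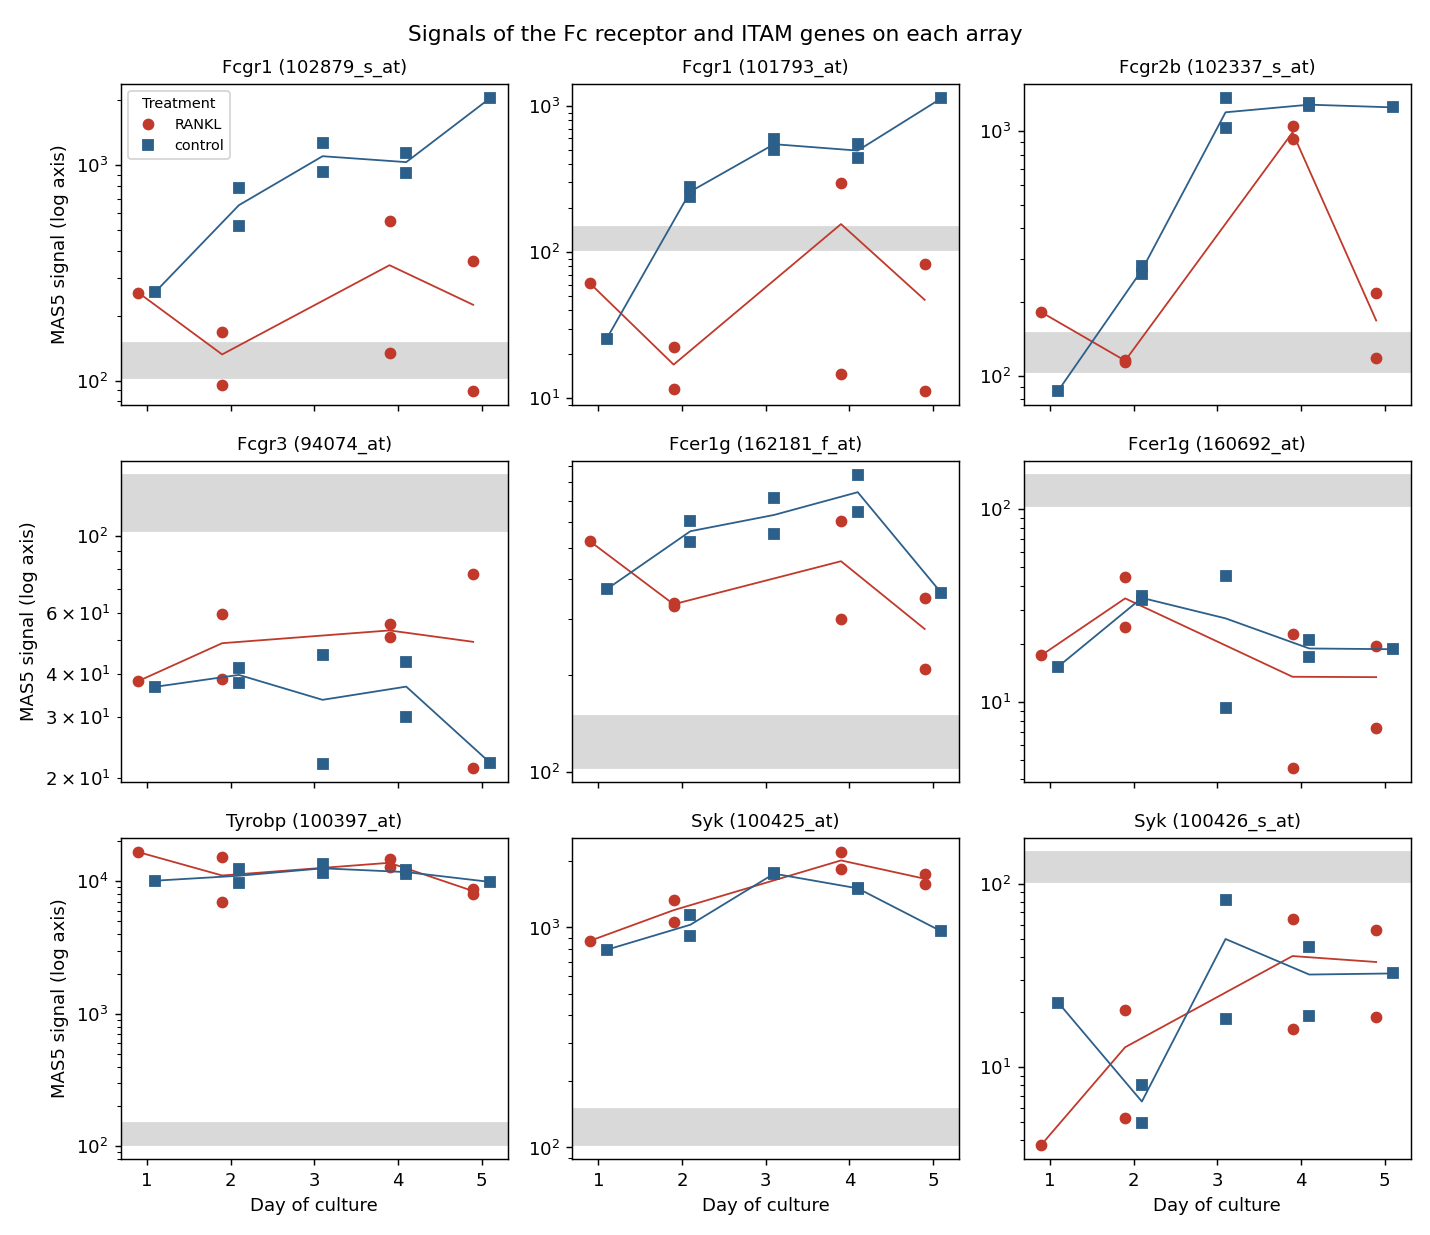
MAS5 signal (log axis) of each of the 9 probe sets against day of culture; each point is 1 array, circles are RANKL and squares control, lines join the group means and the grey band is the range of the array medians (103 to 149). Fcgr1 stays low with RANKL while the control arrays climb. Of the RANKL days shown, which lack day 3, Fcgr2b is highest at day 4. The probe set of Fcgr3 and the dimmer ones of Fcer1g and Syk lie below the band.

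Fcgr1, the high-affinity IgG receptor, was lower in RANKL cells than in control cells. The main probe set (102879_s_at) had a signal of 256 on the RANKL day 1 array, 169 and 95.7 at day 2, 553 and 134 at day 4, and 359.9 and 89.7 at day 5. On control arrays it was 258 at day 1, 525 and 780.1 at day 2, 1272 and 932 at day 3, 1143 and 925 at day 4, and 2048 at day 5. The day 1 arrays were alike, and from day 2 every RANKL array lay below every control array of its own day. Of the 6 RANKL arrays of days 2, 4 and 5, 5 lay below all 5 control arrays of those days. Over all 12422 probe sets, 1.88% had at least 5 of the 6 below. The share of all probe sets with an order within each day was not counted, here or for other members.

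The second Fcgr1 probe set (101793_at) gave the same order from day 2. Its signal was 61.2 on the RANKL day 1 array, 22.5 and 11.5 at day 2, 296 and 14.7 at day 4, and 83.1 and 11.3 at day 5. The control arrays read 25.6 at day 1, 239 and 281 at day 2, 596 and 499 at day 3, 552 and 438 at day 4, and 1129 at day 5. Replicate RANKL arrays of one day differed widely at days 4 and 5 in both probe sets. The array with the higher Fcgr1 signal was replicate 1 each time, and the osteoclast marker sums of replicates 1 and 2 were 13480 and 15860 at day 4, and 24150 and 24710 at day 5.

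Averaged over days 1, 2, 4 and 5, the RANKL minus control difference of Fcgr1 was -1.77 ± 0.34 (log2(signal + 32), standard error) for 102879_s_at, a 3.42-fold lower level (limma, adjusted p = 0.0318), and -2.00 ± 0.42 for 101793_at (adjusted p = 0.0457). In bulk RNA, fewer cells that express a gene and less of its RNA per cell cannot be told apart. Over the same 4 days, 3 of 5 osteoclast markers were called higher with RANKL (Acp5, Ctsk and Mmp9, by 4.33, 2.57 and 2.24). Of the macrophage markers, 3 of 10 were called lower (Adgre1, Itgam and C3ar1, at -0.76, -1.08 and -1.43). Of the B cell markers, 1 of 6 was called lower (Ighm, at -0.95). The summed signal of the B cell list was 579 to 876 on RANKL arrays and 576 to 1655 on control arrays. With days 2, 4 and 5 only, the same 3 osteoclast genes and the dendritic cell gene Itgax (0.93) were called higher. In that setting 4 of 10 macrophage genes and Ighm were called lower. Their part in the Fcgr1 and Fcgr2b differences was not tested. With days 2, 4 and 5 only, the differences were -2.36 (adjusted p = 0.00399) and -2.90 (adjusted p = 0.00375). The calls over the 4 days sat close to the threshold. They were lost in 11 of 23 and 14 of 23 other settings, while the differences stayed negative, between -2.36 and -1.28 and between -2.90 and -1.32. For 102879_s_at the call was lost without any 1 array of control days 2 to 5 or of RANKL day 2 (-1.86 to -1.28, adjusted p = 0.0522 to 0.297). For 101793_at it was lost without those same arrays or RANKL day 5 replicate 2 (-2.04 to -1.32, adjusted p = 0.075 to 0.394).

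Fcgr2b, the inhibitory receptor, was high from day 3 in control cells. Of the RANKL days analysed (1, 2, 4 and 5), it was high at day 4 only, and its level at RANKL day 3 is not known here. RANKL arrays lay below control arrays at day 2, came nearer to them at day 4 and lay furthest below at day 5. Its signal was 182 on the RANKL day 1 array, 116 and 114 at day 2, 927 and 1049 at day 4, and 218 and 118 at day 5. On control arrays it was 86.7 at day 1, 279.9 and 261 at day 2, 1026 and 1365 at day 3, 1306 and 1263 at day 4, and 1252 at day 5. Control cells thus kept a high signal on all 5 arrays of days 3 to 5, while the 2 RANKL arrays of day 4 came near that range and those of day 5 lay close to the RANKL arrays of day 2.

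At day 5 the difference of Fcgr2b was -2.73 ± 0.30, a 6.63-fold lower level in RANKL cells (limma, adjusted p = 0.00216), and it was the 1 member probe set called at that day, where 0.918% of all probe sets were called. The call held in all 21 other settings (-3.10 to -2.36). It rests on 1 control array, whose signal of 1252 lay within the 1026 to 1365 of the 4 control arrays of days 3 and 4. At day 4 the difference was -0.37 ± 0.25 (95% interval -0.91 to 0.17, adjusted p = 0.774), at day 2 it was -1.04 ± 0.25 (adjusted p = 0.0943), and at day 1 it was 0.85 ± 0.35 (adjusted p = 0.832).

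Over the 4 days the difference of Fcgr2b was -0.82 ± 0.14 (limma, adjusted p = 0.0178), and -1.38 (adjusted p = 0.000592) with days 2, 4 and 5 only. The 4-day call was lost in 6 of 23 other settings. Without control day 5 replicate 1, which leaves days 1, 2 and 4, the difference was -0.19 (adjusted p = 0.805). Without any 1 of the control arrays of days 2 and 4 it was -0.83 to -0.81 (adjusted p = 0.0501 to 0.0552), and with the beta-actin ratio as a covariate it was -0.85 (adjusted p = 0.0807).

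Fcgr3, the low-affinity activating receptor, had a single probe set (94074_at) whose signal was 21.5 to 77.4 and lay below the array's median on all 15 arrays, so only its level is given. RANKL and control arrays overlapped: its signal was 38.1 at RANKL day 1, 59.4 and 38.6 at day 2, 51.1 and 55.5 at day 4, and 77.4 and 21.5 at day 5. The control arrays read 36.7 at day 1, 37.7 and 41.7 at day 2, 45.2 and 22.1 at day 3, 30.1 and 43.3 at day 4, and 22.2 at day 5.

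**Figure D2:**
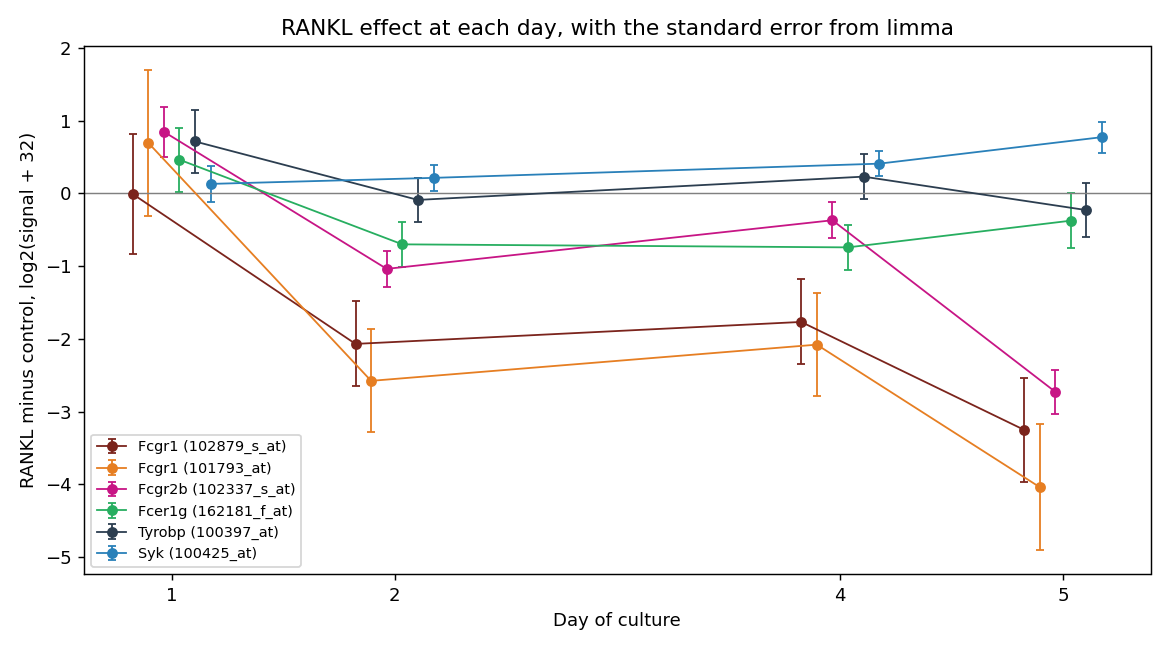
RANKL minus control difference of log2(signal + 32) at days 1, 2, 4 and 5 for the 6 member probe sets that were not below the array's median on all arrays; points are limma estimates and bars the standard error. Both Fcgr1 probe sets are lowest at day 5 (-3.25 and -4.04). That day has 1 control array, whose Fcgr1 signals (2048 and 1129) lay above those of control days 3 and 4. Fcgr2b is at -0.37 at day 4 and at -2.73 at day 5, and Syk is above 0 on each day.

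Fcer1g, the ITAM chain of the activating Fc receptors, was measured above the array's median by probe set 162181_f_at. Its signal was 524 on the RANKL day 1 array, 330.2 and 336 at day 2, 300.2 and 608 at day 4, and 349 and 209 at day 5. Control signals were 371 at day 1, 604 and 522 at day 2, 714 and 552 at day 3, 842 and 649 at day 4, and 361 at day 5. RANKL arrays were below the control arrays of their day at days 2, 4 and 5, and above at day 1. Of the 6 RANKL arrays of days 2, 4 and 5, 5 lay below all 5 control arrays of those days, as for Fcgr1. At least 5 did so for 1.88% of all probe sets. The difference over the 4 days, -0.34 ± 0.18, did not pass (95% interval -0.74 to 0.06, adjusted p = 0.556), nor did the -0.61 without day 1 (adjusted p = 0.138). The other probe set, 160692_at, read 4.58 to 44.9 and was below the array's median on every array.

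Tyrobp, the chain that pairs with receptors such as Trem2 on myeloid cells, was among the brightest probe sets of every array (percentile 98.4 to 99.4). Its signal was 16562 at RANKL day 1, 6933 and 15147 at day 2, 12854 and 14671 at day 4, and 8788 and 8054 at day 5. On control arrays it was 10087 at day 1, 12279 and 9699 at day 2, 11547.5 and 13462 at day 3, 12143 and 11280.5 at day 4, and 9875 at day 5. The RANKL arrays lay on both sides of the control arrays, and their difference over the 4 days was 0.16 ± 0.18 (95% interval -0.24 to 0.55, adjusted p = 0.868), and -0.03 without day 1. The change of Tyrobp minus that of Fcer1g was 0.49, which missed the threshold (two-sided exact permutation of the treatment labels within days, 216 arrangements, p = 0.037, adjusted p = 0.0556 over 3 tests, smallest possible p 0.00463).

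Syk, the kinase that docks on phosphorylated ITAMs, was measured by probe set 100425_at at 869.8 on the RANKL day 1 array, 1334 and 1063 at day 2, 2201 and 1835 at day 4, and 1751 and 1581 at day 5. The control arrays gave 792 at day 1, 917 and 1142 at day 2, 1768 and 1745 at day 3, 1499 and 1514 at day 4, and 960.2 at day 5. The RANKL arrays of days 4 and 5 lay above the control arrays of their own days, and those of day 2 overlapped with control. Over the 4 days the difference was 0.38 ± 0.10 (adjusted p = 0.124), and with days 2, 4 and 5 only it was 0.47 and passed (adjusted p = 0.0406). At day 5 it was 0.77 ± 0.21 (adjusted p = 0.123). The other Syk probe set, 100426_s_at, read 3.78 to 81.8 and was below the array's median on all 15 arrays.

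In counts, 3 of the 9 member probe sets, in 2 of 6 genes, were called over the 4 days, all 3 lower with RANKL. Of all probe sets 1.09% were called, and 0.539% were called lower. With days 2, 4 and 5 only, 3 were called lower and 1 higher, that of Syk, where 3.48% of all probe sets were called. None of the 9 was called at day 1, where 0% of all probe sets were called, at day 2 (0.853%) or at day 4 (0.266%). At an unadjusted limma p under 0.05, 1 of the 9 passed at day 1, 4 at day 2 and 4 at day 4, where 5.86%, 10.1% and 8.13% of all probe sets passed. Fcgr1 had large differences at single days without passing, for 102879_s_at -2.07 ± 0.58 at day 2 (adjusted p = 0.18), -1.77 ± 0.58 at day 4 (adjusted p = 0.398) and -3.25 ± 0.72 at day 5 (adjusted p = 0.0606). The day 5 value rests on 1 control array, whose signal of 2048 lay above the 925 to 1272 of control days 3 and 4. The RANKL mean of log2(signal + 32) for 102879_s_at was 7.77 at day 5 and 7.32 at day 2. The median difference over the 4 days was -0.08 for the 9 probe sets and 0.01 for all probe sets. The late minus early RANKL effect (days 4 and 5 minus days 1 and 2) had no member called and 0.0403% of all probe sets. At an unadjusted limma p under 0.05, 2 of 9 and 8.03% of all probe sets passed. Fcgr2b had -1.45 ± 0.29 there (adjusted p = 0.187). It was -0.51 without the day 1 pair (adjusted p = 0.833), -0.27 without control day 5 replicate 1 (adjusted p = 0.998), and -1.64 without RANKL day 5 replicate 1, the 1 setting in which it passed (adjusted p = 0.0366).

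Fcgr2b was called for culture time in both treatments, but in RANKL cells the late days were not alike. Its RANKL signal was 927 and 1049 at day 4, but 218 and 118 at day 5. At RANKL day 1 it was 182, and at RANKL day 2 it was 116 and 114. The RANKL value below thus averages a high day 4 with a day 5 near the early days, unlike the control cells, which stayed high at day 5. In control cells, days 4 and 5 minus days 1 and 2 gave 2.78 ± 0.21 (limma, adjusted p = 0.000203), rank 2 of all probe sets by p, and in RANKL cells 1.33 ± 0.19 (adjusted p = 0.00163). Both calls held in all 23 other settings, with 2.11 (adjusted p = 0.00267) and 1.59 (adjusted p = 0.00157) without the day 1 pair. Of the members, 2 were called in RANKL cells, Fcgr2b and Syk (0.83 ± 0.14, adjusted p = 0.0031, and 0.61 without the day 1 pair, adjusted p = 0.0237), where 14.8% of all probe sets were called. In control cells 3 member probe sets were called, where 10.9% of all were. The other 2 were those of Fcgr1, with 1.75 ± 0.51 (adjusted p = 0.0478) and 2.59 ± 0.61 (adjusted p = 0.021). In RANKL cells the Fcgr1 probe sets had 0.28 ± 0.46 and 0.47 ± 0.56 (adjusted p = 0.779 and 0.677), and 0.70 and 0.94 without the day 1 pair (adjusted p = 0.446 and 0.387). Syk in control cells had 0.41 ± 0.15 (adjusted p = 0.12). Without the day 1 pair, Fcgr2b and Syk were called in RANKL cells, where 12.3% of all probe sets were, and Fcgr2b alone of the members in control cells, where 5.67% were.

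The Fcgr1 rise in control cells depended on single arrays. For 102879_s_at it was lost without any 1 control array or either RANKL day 2 array (1.14 to 1.89, adjusted p = 0.0599 to 0.268), with 1.14 without the day 1 array and 1.27 without the day 5 array. For 101793_at it was lost without the control array of day 1 or day 5, control day 2 replicate 1 or either control day 4 array (1.42 to 2.67, adjusted p = 0.0518 to 0.255).

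Comparisons of neighbouring days were added after the Fcgr2b signals were seen. Fcgr2b was 2.79 ± 0.25 higher at RANKL day 4 than at RANKL day 2 (limma, adjusted p = 0.000298), 2.39 ± 0.25 lower at RANKL day 5 than at RANKL day 4 (adjusted p = 0.00176), and 2.01 ± 0.25 higher at control day 3 than at control day 2 (adjusted p = 0.00259). Syk was 0.74 ± 0.18 higher at RANKL day 4 than at day 2 (adjusted p = 0.0184) and 0.76 ± 0.18 higher at control day 3 than at day 2 (adjusted p = 0.0272). These made 2, 1 and 2 member probe sets called, against 12.5%, 0.636% and 7.08% of all probe sets. The Fcgr2b difference between RANKL days 5 and 4 was lost with the beta-actin ratio as a covariate (-2.30, adjusted p = 0.22), under which no probe set was called. That ratio was 1.08 and 1.02 on the RANKL day 5 arrays, against 1.18 and 1.34 on the RANKL day 4 arrays. The Syk calls were lost without RANKL day 2 replicate 2 or RANKL day 4 replicate 1 (0.58 and 0.61) and without any 1 of the 4 control arrays compared (0.61 to 0.91). The RANKL effect on Fcgr2b at day 5 minus that at day 4 was -2.36 ± 0.39, rank 3 by p, and missed the threshold (adjusted p = 0.2, with 0.00805% of all probe sets called). Without RANKL day 5 replicate 1 it was -2.73 and passed (adjusted p = 0.00778).

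The genes with the pattern nearest to each called member were found over the 9 group means, as the root mean square difference of log2(signal + 32) after each gene was centred on its own mean, among 8250 other genes. For Fcgr1 these were St3gal6, a sialyltransferase gene (0.25), Selenbp1 (0.35) and Nrp1, a semaphorin and VEGF receptor gene (0.39). For Fcgr2b they were Anxa3, an annexin gene (0.35), Dhrs3, a retinal reductase gene (0.38), and the TNF receptor gene Tnfrsf1b (0.42). For Syk they were Ube2a (0.13), Tgm2 (0.14) and Tob1 (0.15), a smaller distance for a gene whose own group means spread less (SD 0.47, against 1.26 for Fcgr1 and 1.47 for Fcgr2b). The 2 Fcgr1 probe sets differed from each other by 0.44, and from Fcgr2b by 0.84 and 0.82. The points share arrays and scaling, so the distances are descriptions.

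**Figure D3:**
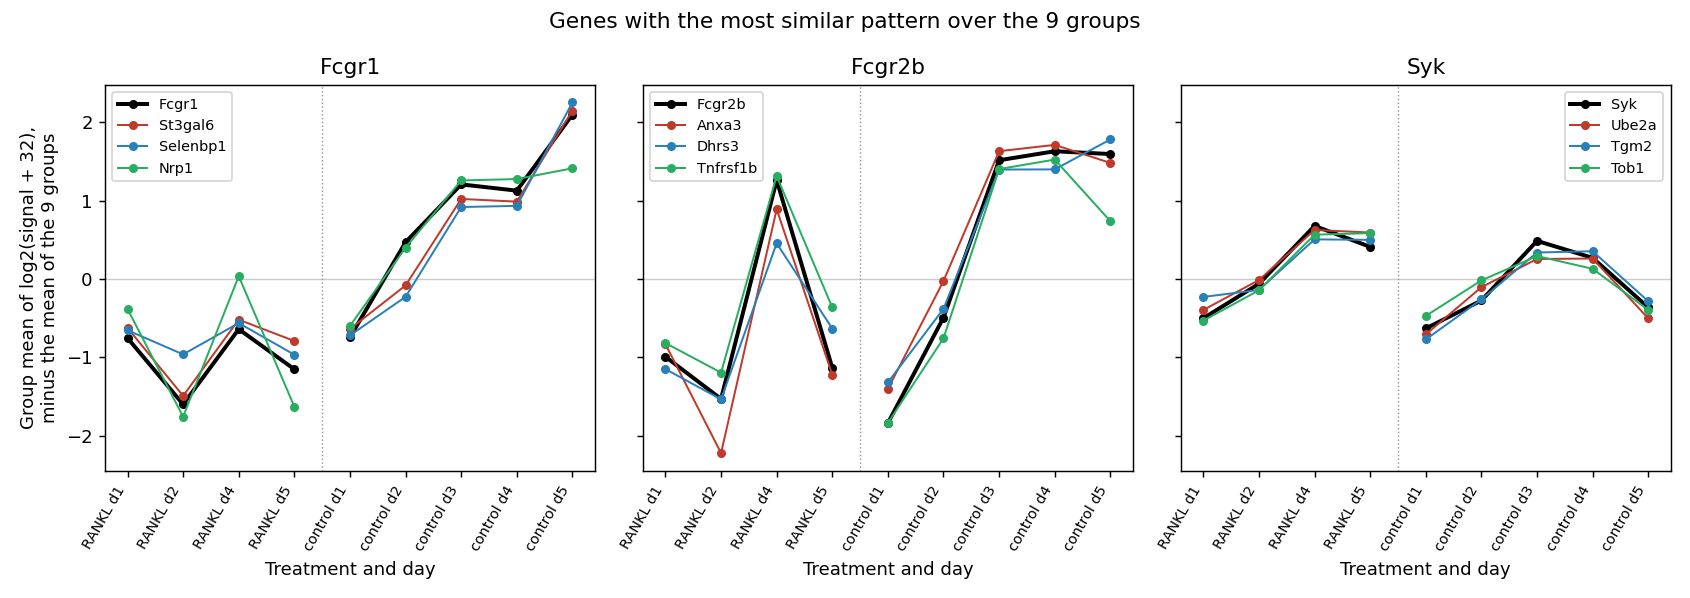
Group means of log2(signal + 32) minus the mean over the 9 groups for Fcgr1, Fcgr2b and Syk (thick lines) and the 3 genes nearest to each (thin lines); RANKL groups stand left of the dotted line and control groups right of it. The lines of Fcgr2b, Anxa3, Dhrs3 and Tnfrsf1b are highest at day 4 among the RANKL groups, which lack day 3. They share the high plateau at control days 3 and 4.

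Around the members, 10 lists of genes upstream and downstream of ITAM signalling held 188 genes, of which 123 were represented, 117 of them outside the 6 members. In the counts for RANKL, rose and fell mean called higher or lower in RANKL than in control cells, not a change with time. Over the 4 days 2 of the 117 rose with RANKL and 0 fell, 1.71% of them, against 1.36% of all genes. At an unadjusted limma p under 0.05, 9 of the 117 were higher (7.69%, against 5.48% of all genes) and 18 were lower (15.4%, against 6.76%). Their median difference was -0.03, against 0.00 for all genes. Without the day 1 pair, 5 of the 117 rose and 6 fell (9.4%, against 4.14% of all genes), and the count of genes that fell thus depended on the day 1 pair. At day 2, 1 rose and 2 fell (2.56%, against 0.994% of all genes). At days 4 and 5, 2 rose and 0 fell on each day (1.71%, against 0.327% and 1.21%). At day 1 none was called, and 4 of the 117 (3.42%, against 5.34% of all genes) had an unadjusted limma p under 0.05.

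Nfatc1, the calcium-regulated transcription factor that directs osteoclast gene expression, ends the calcium arm and was called higher in RANKL than in control cells. Its signal was 4548 at RANKL day 1, 5340.3 and 4632 at day 2, 3075 and 4291 at day 4, and 3981 and 6460.3 at day 5. On control arrays it was 4410.2 at day 1, 2134 and 861 at day 2, 441 and 539 at day 3, 541 and 380.4 at day 4, and 399 at day 5. The day 1 arrays were alike, and all later RANKL arrays lay above all later control arrays. The RANKL signal stayed at 3075 to 6460.3, while the control signal fell from 4410.2 at day 1 to 399 at day 5. From day 2 the control signal still fell, from 2134 and 861 to 399 at day 5. The control values of days 1 and 5 rest on 1 array each, and no array before day 1 was analysed here. The difference over the 4 days was 2.09 (limma, adjusted p = 0.000958), and 2.78 with days 2, 4 and 5 only (adjusted p = 0.000105). By day it was 1.85 at day 2 (limma, adjusted p = 0.0461, lost in 14 of 22 other settings), 2.91 at day 4 (adjusted p = 0.00731) and 3.57 at day 5 (adjusted p = 0.00556). Leaving out 1 of 9 arrays ended the day 2 call (1.21 to 1.95, adjusted p = 0.0595 to 0.25), and control day 4 replicate 2 or RANKL day 4 replicate 2 ended that of day 4 (2.68 each).

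Clec4a2, an inhibitory C-type lectin receptor with an ITIM, was the other gene called higher in RANKL than in control cells. Its signal was 170 at RANKL day 1, 333 and 340.4 at day 2, 393 and 666 at day 4, and 229.9 and 414 at day 5, against 158 at control day 1, 239 and 158 at day 2, 54.8 and 87.7 at day 3, 73.2 and 74.1 at day 4, and 28.9 at day 5. Its difference was 1.41 over the 4 days (limma, adjusted p = 0.0063), 1.85 with days 2, 4 and 5 only (adjusted p = 0.000774), 2.37 at day 4 (adjusted p = 0.0149) and 2.49 at day 5 (adjusted p = 0.0211). Single arrays ended each call, with 1.05 over the 4 days without control day 5 replicate 1 (adjusted p = 0.139), 2.01 to 2.37 at day 4 without either control array or RANKL replicate 2 (adjusted p = 0.137 to 0.173), and 2.10 at day 5 without RANKL replicate 2 (adjusted p = 0.103).

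At day 2 the 2 genes that fell were Ptk2b, the focal adhesion family kinase Pyk2 (-1.39, limma, adjusted p = 0.0257), and Ptpra, a receptor phosphatase that activates Src kinases (-1.04, adjusted p = 0.0416). Ptk2b read 464.5 and 413 on RANKL arrays, against 925 and 1566 on control arrays. Its call was lost with the beta-actin ratio as a covariate, and without either RANKL array or control replicate 2 (-1.47 to -1.02, adjusted p = 0.0917 to 0.179). Ptpra read 564 and 572 on RANKL arrays, against 1119 and 1288 on control arrays, and its call was lost in 12 of 22 other settings. These were leaving out any 1 of 8 arrays (-1.14 to -0.94, adjusted p = 0.0658 to 0.25), quantile normalization, a pseudocount of 100, no intensity trend and the replicate block (-1.04 to -0.96, adjusted p = 0.0521 to 0.0753).

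By list, counted over the represented genes and the 4 days, the Fc receptors and associated proteins had 0 rise and 2 of 10 fall, both members (median -0.10). None passed among 7 ITAM adaptor chains (median 0.06) or 7 receptors listed as partners of Fcer1g or Tyrobp (median -0.10). These 7, of 25 listed, were Clec4e, Clec4d, Klrk1, Lilr4b, Itgb2, Itgb3 and Csf1r. The integrin chains Itgb2 and Itgb3 and the receptor kinase Csf1r are not such paired receptors, and Oscar and the Trem genes were not represented. Nor did any pass among 11 Src family kinases and their regulators (median -0.18) or 25 Syk-proximal adaptors and kinases (median -0.01). The same held for 7 genes of the PI3 kinase and Akt arm (median 0.04), 9 of the PKC, Card9 and Ras arm (median 0.02) and 18 phagocytosis and actin effectors (median -0.02). The calcium, calcineurin and NFAT arm had 1 of 14 rise, and the inhibitory receptors and phosphatases 1 of 15. Many listed genes were below the array's median on all 15 arrays. These were 5 of 7 ITAM chains, 5 of 10 Fc receptor genes, 4 of 9 in the PKC arm and 6 of 25 in the Syk-proximal list. The inhibitory list had 4 of 15 there, the Src list 2 of 11, the partner list 2 of 7, and the other lists 1 each. The ITAM chain count and median thus rest mostly on dim probe sets. With days 2, 4 and 5 only, 4.14% of all genes were called, against 1.36% over the 4 days. The Fc receptors and associated proteins again had 2 fall. In that setting the ITAM adaptor chains, the receptors listed as partners of Fcer1g or Tyrobp and the PI3 kinase and Akt arm had none called. The Src family kinases and their regulators had 1 rise (Ptpn1) and 2 fall (Fgr and Ptpra), and the Syk-proximal list had 1 rise (Syk) and 2 fall (Vav1 and Ptk2b). The calcium arm had 2 rise (Nfatc1 and Rcan1), the PKC arm 1 rise (Prkca, below the array's median on all 15 arrays), the phagocytosis list 1 fall (Cybb), and the inhibitory list 1 rise (Clec4a2) and 1 fall (Dok2, a gene named here after its values were seen, at -0.48 and adjusted p = 0.0357).

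Among genes that were not below the array's median on every array, the largest differences that missed the threshold over the 4 days were those of Cybb, the catalytic chain of the phagocyte NADPH oxidase (-1.37, adjusted p = 0.078), Lilr4b (-0.92, adjusted p = 0.2), the Src family kinase gene Fgr (-0.88, adjusted p = 0.0572), Clec4e, the Mincle receptor that pairs with Fcer1g (-0.70, adjusted p = 0.203), and Rcan1, a calcineurin regulator (0.70, adjusted p = 0.0883). With days 2, 4 and 5 only, Cybb (-1.95, adjusted p = 0.00954), Fgr (-1.23, adjusted p = 0.00645) and Rcan1 (0.97, adjusted p = 0.0126) passed, while Lilr4b (-1.21, adjusted p = 0.0579) and Clec4e (-0.88, adjusted p = 0.0699) did not. In all, Fgr passed in 7, Cybb in 6 and Rcan1 in 5 of 23 other settings. Cybb read 126 to 1458 on the RANKL arrays of days 2, 4 and 5, against 744 to 2907 on the control arrays of those days, with 4 of 6 RANKL arrays below all of them, as at least 4 were for 4.95% of all probe sets. Fgr read 270 to 1209 on those RANKL arrays, against 664 to 1549.6 on the control arrays. For Fgr 5 of 6 lay below, as at least 5 did for 1.88% of all probe sets. The phosphatase gene Ptpn1 had a difference of 0.62 (adjusted p = 0.148), and its 6 RANKL arrays, at 2003 to 3539, all lay above the control arrays, at 1035 to 1914, as was the case for 0.789% of all probe sets. It was 0.81 with days 2, 4 and 5 only and passed (adjusted p = 0.039). The exchange factor Vav1 had -0.47 over the 4 days (adjusted p = 0.239) and passed at -0.81 with days 2, 4 and 5 only (adjusted p = 0.0229). So did Ptk2b (-0.81, adjusted p = 0.0116) and Ptpra (-0.60, adjusted p = 0.0241), which had -0.50 and -0.40 over the 4 days. Over the 4 days Marcksl1 had -0.58, Trim21 -0.36, Prkcb -0.26, Pik3cd -0.24 and Pik3ca 0.21. The genes Ms4a2, Cd247, Cd3g, Prkca and Cd5 were below the array's median on all 15 arrays.

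More of the 117 genes were called for culture time than for RANKL at any day, as was the case for all genes. The culture time comparisons average more arrays than the single days do, so the counts are not like for like. In RANKL cells 23 rose and 3 fell (22.2%, against 17.4% of all genes), and in control cells 19 rose and 3 fell (18.8%, against 12.5% of all genes). Without the day 1 pair, 22 rose and 0 fell in RANKL cells (18.8%, against 14.6%), and 9 rose and 2 fell in control cells (9.4%, against 6.37%). Vav1 rose in both, by 1.15 in RANKL cells (limma, adjusted p = 0.00498) and by 1.92 in control cells (adjusted p = 0.00108), and without the day 1 pair by 1.499 (adjusted p = 0.003) and 1.62 (adjusted p = 0.00735).

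**Figure D4:**
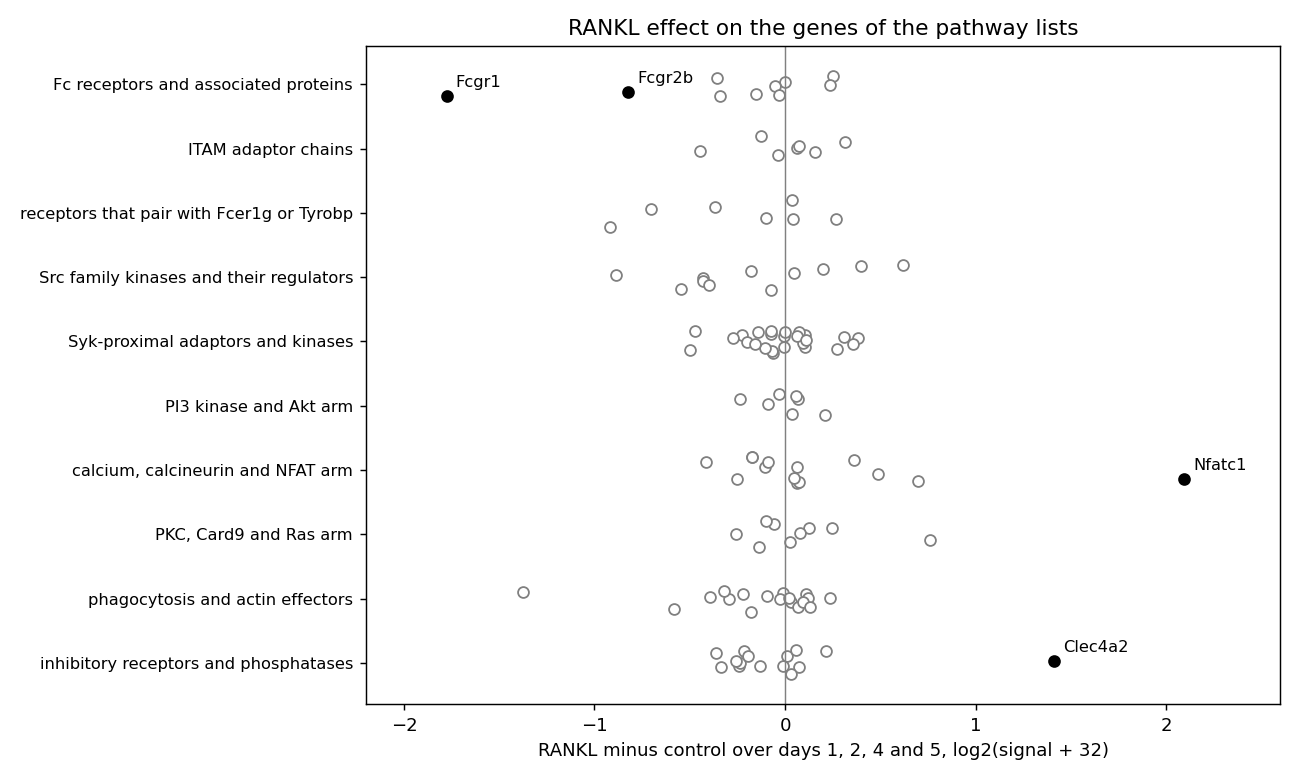
RANKL minus control difference over days 1, 2, 4 and 5, in log2(signal + 32), for each represented gene of the 10 pathway lists, members included; each circle is 1 gene and filled circles passed the threshold. Fcgr1 and Fcgr2b lie at -1.77 and -0.82, and Clec4a2 and Nfatc1 at 1.41 and 2.09.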

How the data were processed

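RNA of 15 RAW264.7 samples was measured on Affymetrix arrays. The deposited values are linear intensity signals per probe set, made with MAS5 per the submitters' processing notes (version not given in the sources used here). The 2% trimmed mean of each array is 500, so the authors had scaled them, and nothing further was normalized. Of 12488 probe sets, 66 control sets were left out and 12422 were tested without a filter on dim signals. The annotation gives 1 gene for 10833, several for 396 and none for 1193, and a listed gene with several probe sets was taken at the brightest by mean log2 signal. Suffixes _s_at and _f_at mark probe sets that can match several transcripts or a gene family, so Fc receptor signals may share transcripts.

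Log2(signal + 32) was fitted with limma 3.58.1 in R 4.3.3 (1 mean for each of 9 groups, eBayes with trend, 6 residual and 5.39 prior degrees of freedom, two-sided, Benjamini-Hochberg over all probe sets, threshold 0.05). Errors are standard errors, and a group of 1 array borrows the spread of the rest. The procedure was tested on simulated data. Planned permutation tests against Fcgr3 are not used, because its probe set was dim. Members and lists were chosen with earlier results of these data known. Named are all members, pathway genes that passed over the 4 days or at day 2, 4 or 5, the 2 largest changes per list, and the 3 nearest patterns per called member. Replicate numbers did not pair the arrays (r = -0.17 to 0.12 over 15 pairs of groups). Alternatives were quantile normalization, a pseudocount of 1 or 100, no trend, testing the upper 50% of probe sets, a replicate block, the beta-actin ratio as a covariate, days 2, 4 and 5 only, other probe sets and each array left out.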

Additional observations from a re-analysis of the deposited data

Results flagged for a closer look

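For 4 of the member probe sets not below the array's median on all arrays, every RANKL array lay above the control arrays of one day and below those of another. At day 1, with 1 array on each side, such a separation is fixed in advance. The share over all probe sets was not counted, so the 4 are a description only. The RANKL minus control differences of Fcgr1 (101793_at) were 0.70 at day 1 and, on the later days 2, 4 and 5, -2.58, -2.08 and -4.04. Those of Fcgr2b were 0.85 at day 1, then -1.04, -0.37 and -2.73. Those of Fcer1g (162181_f_at) were 0.46 at day 1, then -0.70, -0.74 and -0.38. Those of Tyrobp were 0.71 at day 1, 0.23 at day 4 and -0.23 at day 5, and its day 2 arrays overlapped. In each case the day 1 difference, which sets 1 array against 1, was positive. The RANKL effect at day 5 minus that at day 4 was -0.46 ± 0.48 for Tyrobp (limma, adjusted p = 0.807), -1.96 ± 1.12 for Fcgr1 101793_at (adjusted p = 0.606), 0.37 ± 0.49 for Fcer1g (adjusted p = 0.871) and -2.36 ± 0.39 for Fcgr2b (adjusted p = 0.2), none of which passed. Differences of the day 1 effect from that of a single later day were not tested.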

How the results depend on the processing

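Groups of 1 or 2 arrays limit all results, and dim probe sets carry little signal over background. Of the values for brighter members and named pathway genes under other settings, 1645 kept direction and side of the threshold, 100 lost a call, 60 gained one and 34 reversed. The causes of changes were not tested.

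Over the 4 days 136 probe sets were called, and 218 with the upper 50% of probe sets, 64 with the beta-actin ratio as a covariate and 432 with days 2, 4 and 5 only. The 3 member calls became 1 without the trend and 0 with the covariate. At day 2 the 106 calls became 68 without the trend and 34 with the covariate, and 1 member was called in the upper 50%. At day 4 the 33 became 12 with the covariate. At day 5 the 114 became 244 in the upper 50% and 64 with a replicate block, which at day 2 ended the calls of Ptpra and Nfatc1 (adjusted p = 0.0534 and 0.0669), and the 1 member call became 3 with pseudocount 100 and in the upper 50%. For the late minus early effect, 5 calls became 12 in the upper 50%, 3 without the trend and 2 with days 2, 4 and 5 only. With the covariate, culture time gave 1086 calls in RANKL cells, against 1839, and 169 in control cells, against 1348, where the 3 member calls became 1, as they did with pseudocount 1 and without the day 1 pair (704 calls). Culture time and the pathway counts without day 1 were added after the data were seen.

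Of the added comparisons, RANKL day 5 minus day 4 had 79 calls, and 147 in the upper 50%, 34 without the trend, 36 with the replicate block and 0 with the covariate, where the 1 member call became 0. The RANKL effect at day 5 minus that at day 4 had 1 call, and 3 with pseudocount 1, 2 in the upper 50% and 0 with quantile normalization, without the trend, with the replicate block or with the covariate. Control day 3 minus day 2 had 880 calls, and 152 with the covariate, where 2 member calls became 1. The planned permutation tests of Fcgr1 and Fcgr2b against Fcgr3 support nothing, because the Fcgr3 probe set was below the array's median on all arrays. There, Fcgr2b minus Fcgr3 was -1.71 with days 2, 4 and 5 only, and Fcgr1 minus Fcgr3 was -2.25 with probe set 101793_at. Tyrobp minus Fcer1g was 0.52 with pseudocount 1 (adjusted p = 0.0486 by exact permutation).

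With 1 array left out, the calls over the 4 days ran from 11 (without control day 5 replicate 1) to 427 (without either day 1 array), with 0 to 4 members. They ran from 0 to 0 at day 1 (members 0 to 0), 2 to 147 at day 2 (0 to 1), 9 to 54 at day 4 (0 to 1), 52 to 355 at day 5 (1 to 3), 2 to 21 for late minus early (0 to 1), 1146 to 1972 for culture time in RANKL cells (2 to 3) and 700 to 1410 in control cells (1 to 3). They ran from 541 to 1607 for RANKL day 4 minus day 2 (1 to 3), 14 to 181 for day 5 minus day 4 (1 to 1), 0 to 29 for the effect at day 5 minus day 4 (0 to 1) and 49 to 981 for control day 3 minus day 2 (1 to 2). The permutation differences ran from -1.71 to -0.36 for Fcgr2b minus Fcgr3, -2.69 to -1.45 for Fcgr1 minus Fcgr3 and 0.36 to 0.63 for Tyrobp minus Fcer1g.

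Small differences that were not called reversed. Over the 4 days Tyrobp gave -0.030 with days 2, 4 and 5 only and -0.030 to 0.30 with 1 array left out, negative without either day 1 array. At day 2 it gave -0.65 to 0.47 with 1 array left out, at day 4 -0.039 with the covariate, and at day 5 0.053 with quantile normalization. For late minus early it gave 0.090 without day 1 and -0.59 to 0.090 with 1 array left out, and Fcer1g gave 0.14 and -0.68 to 0.14. For culture time in RANKL cells Tyrobp gave 0.0026 with quantile normalization, 0.069 without day 1 and -0.56 to 0.069 with 1 array left out. There Fcer1g gave 0.037 with the covariate, 0.033 without day 1 and -0.51 to 0.033 with 1 array left out, Fcgr1 102879_s_at -0.0058 and -0.17 to 0.74, and Fcgr1 101793_at -0.091 and -0.23 to 1.18. The lowest values of both Fcgr1 probe sets came without RANKL day 4 replicate 1. For culture time in control cells, leaving out 1 array gave -0.11 to 0.66 for Fcer1g and -0.050 to 0.16 for Tyrobp, and leaving out day 1 gave -0.11 and -0.022. For the effect at day 5 minus day 4, Tyrobp gave 0.0077 with quantile normalization and Fcer1g -0.11 to 0.84 with 1 array left out. Fcgr1 102879_s_at gave 0.16 at day 1 with quantile normalization, and Prkcb 0.017 over the 4 days with the covariate.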
